A study of Homo sapiens with 6 samples.

Results

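The genes described here are the protein-coding genes named ZNF plus a number that lie on autosomes other than chromosome 19. To find them, the Ensembl identifiers of the count table were given GENCODE 44 symbols, and those with a CPM (counts scaled so that libraries of unequal depth compare) above 1 in 3 or more of the 6 libraries were taken. This left 200 genes of the 16974 tested. The table held 250 such genes, of which 50 did not reach the level required and 17 of those had no count in any library. Just inside the level were ZNF396 and ZNF385C, where the third highest CPM, which decides, was 1.20 and 1.39, and just outside were ZNF425 and ZNF843, with 0.966 and 0.619. A further 9 ZNF genes on the X chromosome passed the same level and were left out by the definition.

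RNA was sequenced from the human colorectal adenocarcinoma line DLD-1, edited so that both alleles of TPR carried an auxin-inducible degron (AID) and the fluorescent protein NeonGreen. The cells also expressed TIR1, the plant ubiquitin ligase subunit that auxin couples to the degron, from a cassette inserted at the RCC1 locus. TPR is a nucleoporin of the nuclear basket, which reaches from the pore into the nucleus. The 3 LMB cultures received 200 nM Leptomycin B, an inhibitor of the export receptor CRM1, for 3 h, and the 3 LMB+auxin cultures received the same treatment with 1 mM auxin added for the last 2 h. These times follow the incubation labels and the methods, while the sample titles name only 2 h. Cultures without Leptomycin B or with auxin alone were not analysed here, so the comparison concerns auxin, added to degrade TPR, in cells with CRM1 already blocked. No line without the degron was analysed here, so effects of auxin itself and of TPR loss cannot be told apart. The line derives from edited clones and was the only one analysed here, and the labels do not say whether replicates came from separately grown stocks, so p-values measure the spread between these libraries.

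Most ZNF genes encode proteins with arrays of C2H2 zinc fingers, small folds held by a zinc ion between 2 cysteines and 2 histidines, which read DNA about 3 bases at a time. Many carry an N-terminal KRAB domain, which binds TRIM28 (KAP1) and through it recruits the histone methyltransferase SETDB1 and heterochromatin proteins to silence transposable elements and other targets. The family expanded by tandem duplication, and its densest clusters are on chromosome 19. Outside that chromosome the genes are a more mixed group, with KRAB repressors beside transcriptional activators and proteins that bind RNA or act in ribosome assembly.

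The repeat unit that these genes share is shown for 4 of the genes that fell most clearly below. Each sequence is coding DNA of the canonical GENCODE 44 transcript, 5′ to 3′ on the mRNA strand, of 84 bases. The capitals mark the 15 bases that encode TGEKP, the linker that joins 1 finger to the next, and the lower-case part encodes the finger after it. In GRCh38 the stretches are at chr7:6691985-6692068 (minus strand), chr7:6652782-6652865, chr7:65398784-65398867 and chr16:3289875-3289958 (plus strand for the latter 3), each within 1 coding exon.
ZNF12: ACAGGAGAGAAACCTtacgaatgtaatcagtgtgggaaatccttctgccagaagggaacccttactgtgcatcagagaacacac
ZNF316: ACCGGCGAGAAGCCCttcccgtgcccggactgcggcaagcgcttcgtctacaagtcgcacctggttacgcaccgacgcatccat
ZNF92: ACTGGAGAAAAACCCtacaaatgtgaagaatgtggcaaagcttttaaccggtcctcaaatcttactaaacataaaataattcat
ZNF263: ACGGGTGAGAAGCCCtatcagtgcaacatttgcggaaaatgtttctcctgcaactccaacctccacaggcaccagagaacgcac
The 4 stretches encode the same linker with different codons. At least 1 such linker was found in 134 of the 200 genes, with 621 linkers in all, and the most frequent way of encoding it accounted for 14.5% of them.

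A pattern of paired cysteines (2 to 4 residues between them), 12 residues, and paired histidines (3 to 5 between them) in the translated coding sequence gave a median of 8.5 fingers per gene and at most 36, in ZNF142. In 6 genes (ZNF703, ZNF862, ZNF503, ZNF487, ZNF839 and ZNF330) no such pattern was found. A KRAB-like stretch, with at least 8 of 11 fixed residues of the KRAB A box, was found in 83 genes, or 41.5%. A KRAB domain that differs at more of these residues is missed by this rule. Among the 149 ZNF genes on chromosome 19 that passed the same level it was found in 119, or 79.9%, with a median of 13 fingers. Because the proteins repeat one motif, reads could match several genes, so the coding sequences were compared in stretches as long as a read. Only ZNF33A, ZNF33B, ZNF354A and ZNF354B shared more than 1% of these stretches with another ZNF gene, and none shared more than 10%. Exons of another gene covered more than 10% of the exonic bases in 48 genes, and the values of those genes are uncertain because the strand setting of the counting was not given.

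Total counts ran from 28261903 to 35992425 per library. The RNA of TPR, whose protein and not its mRNA is the target of auxin, was 163.1, 157.2 and 180.4 CPM in LMB and 192.5, 185.0 and 186.8 CPM in LMB+auxin. It was higher in 3 of 3 pairs, with a log2 fold change of 0.17 ± 0.05 that passed in edgeR with the block (adjusted p of 0.0136). No protein level was analysed here. Of 11 colon epithelial markers 8 passed the level required, with CDX1, GPA33 and LGALS4 at or near 0, and of 8 markers of other cells 1 did (ACTA2, at 1.96 to 3.60 CPM). The summed epithelial markers ran from 7080 to 7460 CPM in LMB and from 7190 to 7620 CPM in LMB+auxin. The summed markers of other cells ran from 4.49 to 4.89 CPM and from 3.51 to 4.86 CPM. In bulk RNA, fewer cells that express a gene and less RNA per cell cannot be told apart.

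ZNF mRNAs outside chromosome 19 were mostly of low to middling abundance. Their mean level ran from 1.17 CPM to 300.8 CPM with a median of 15.6 CPM, against 29.7 CPM for all tested protein-coding genes. Per kilobase of merged exon the median was 2.98 CPM, against 5.49 for coding genes and 1.90 for the ZNF genes of chromosome 19. Only 8 of the 200 genes reached 100 CPM, 132 reached 10 CPM and 6 were under 2 CPM.

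The highest levels per kilobase were not those of KRAB repressors. ZNF664, a C2H2 gene of chromosome 12, stood first at 39.2 CPM per kilobase, followed by ZNF511 at 27.3. Next came ZNF593 at 24.2 and ZNF622 at 20.3, which encode proteins with roles in assembly of the large ribosomal subunit. ZNF638, also called NP220, a nuclear protein that directs silencing of unintegrated retroviral DNA, was at 20.1. Values of ZNF511 and ZNF593 are uncertain because other genes cover 51.8% and 100% of their exonic bases.

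As a group, the ZNF mRNAs lay slightly lower in LMB+auxin than in LMB. The log2 fold change (LMB+auxin over LMB) was below 0 in 134 of 200 genes, or 67.0%, against 47.6% of the tested protein-coding genes and 50.8% of all tested genes. The median was -0.058, with an interquartile range from -0.17 to 0.02, beside 0.0070 for coding genes and -0.0027 for all genes. Taken pair by pair, with libraries of the same replicate number compared, the median over the ZNF genes was -0.038, -0.056 and -0.093, and over all genes -0.014, 0.012 and -0.00075. The shift was therefore of the same sign in each pair, and it was small: in 109 of the 200 genes the log2 fold change was under 0.1 in size.

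The count of genes past a test depended on whether the replicate numbers entered the model. In edgeR's quasi-likelihood test without them, 0 ZNF genes were called, where a call needed an adjusted p (Benjamini-Hochberg) under 0.05 with a fold of 1.3 or more either way, and the background over all tested genes was 0.00589%. The lowest adjusted p among them was 0.509. At an unadjusted p under 0.05 the test gave 17 lower and 0 higher ZNF genes, beside a background of 3.35% lower and 1.02% higher. Libraries with the same replicate number deviated together. With the replicate number as a block the same test called 2 ZNF genes lower (1.0%), ZNF12 and ZNF512B, and 0 higher, against backgrounds of 0.884% and 0.3%. The share called lower was thus near the background. By the adjusted p alone, without regard to fold, 16 were lower (8.0%) and 0 higher, where 3.25% and 1.11% of all genes were. Without pair 1, 2 or 3 the number lower was 18, 7 and 2. At an unadjusted p under 0.05 there were 48 lower and 3 higher, against 11.8% and 8.1%.

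Simple ordering of the libraries gave a similar picture. In 27 ZNF genes (13.5%) every LMB+auxin value was under every LMB value, and in 3 (1.5%) every one was above, against 6.63% and 4.9% of all genes. In 77 genes (38.5%) the LMB+auxin library was the lower one in 3 of 3 pairs and in 18 (9.0%) it was the higher one, against 20.5% and 21.4%.

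**Figure D1:**
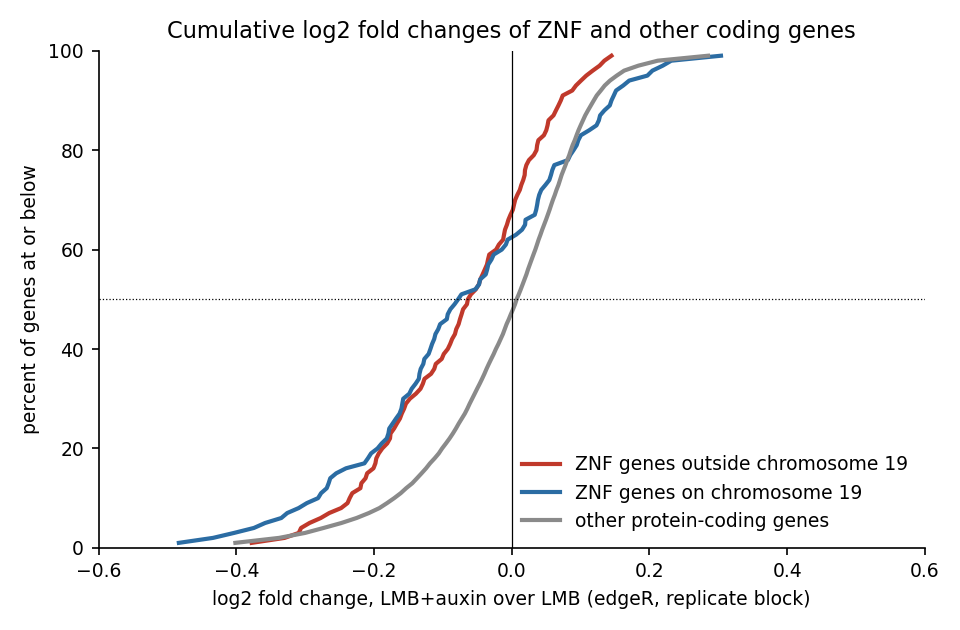
Cumulative distribution of the log2 fold change (LMB+auxin over LMB, edgeR with the replicate block), in percent of genes at or below each value, for the 200 ZNF genes outside chromosome 19, the 149 on chromosome 19 and the other tested protein-coding genes. The ZNF curves cross the middle at -0.064 and -0.078, to the left of the other coding genes, and in its upper part the curve for ZNF genes outside chromosome 19 lies to the left of both others.

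The ZNF genes of chromosome 19 lay on the same side. Their median log2 fold change was -0.070 (-0.078 with the block), and 93 of 149, or 62.4%, were below 0. With the block 13 of them (8.72%) were lower at an adjusted p under 0.05 in edgeR and 3 were higher, and 4 were called lower. Outside chromosome 19 no ZNF gene passed in the upward direction, and the highest fitted value was 0.18. The difference between the chromosomes was not tested.

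ZNF12 carried the clearest decrease. It is a KRAB zinc finger repressor of 697 residues and 15 fingers, on the minus strand of chromosome 7 (chr7:6688433-6706947). Its mRNA was at 42.6, 44.6 and 40.8 CPM in LMB and at 33.3, 29.8 and 27.2 CPM in LMB+auxin. All 3 LMB+auxin values were under all 3 LMB values. The log2 fold change was -0.50 ± 0.09 (SE, n = 3 per group), with an adjusted p of 0.509 in edgeR without the block. With the block it was -0.51 ± 0.06, with an adjusted p of 2.7e-10, a 1.42-fold decrease. DESeq2 called it without the block too (adjusted p of 6.47e-03).

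ZNF316, a KRAB-like gene of 14 fingers, lies next to ZNF12 at chr7:6637318-6658279. It was at 32.3, 32.0 and 30.7 CPM in LMB and at 22.2, 24.0 and 27.0 CPM in LMB+auxin, again without overlap of the groups. The block fit put the change at -0.38 ± 0.06 on the log2 scale (edgeR adjusted p of 1.75e-05), a 1.298-fold decrease that lay just under the fold required for a call. Without pair 3 it was called, at -0.47 (edgeR adjusted p of 3.5e-04).

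ZNF512B was the other gene called with the block, at a far lower level. Its values were 1.84, 1.96 and 1.59 CPM in LMB and 1.28, 1.03 and 1.20 CPM in LMB+auxin. The groups did not overlap, and the log2 fold change was -0.61 ± 0.19 with an edgeR adjusted p of 0.0474. The estimate was the least precise of the 16, and the call was lost whichever pair was left out (log2 fold changes of -0.45 to -0.71, edgeR adjusted p of 0.131, 0.330 and 0.152 without pair 1, 2 and 3). DESeq2 with the block gave it no adjusted p.

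The other genes that passed the adjusted p with the block fell by smaller steps. ZNF263, a SCAN-domain zinc finger factor at chr16:3283283-3301401, was at 52.4, 48.8 and 49.1 CPM in LMB and 43.6, 38.6 and 40.2 CPM in LMB+auxin (log2 fold change -0.30 ± 0.06). ZNF646 at 16p11.2 was at 41.5, 35.4 and 37.0 CPM and 32.5, 29.9 and 29.6 CPM (-0.31 ± 0.06). ZNF281, a factor linked to stem cell and epithelial-mesenchymal programmes, was at 54.2, 49.3 and 49.3 CPM and 47.6, 40.4 and 38.5 CPM (-0.28 ± 0.06). In none of the 3 did the groups overlap, and the adjusted p values from edgeR with the block were 1.44e-04, 2.28e-04 and 4.44e-04. Without pair 3 none of them passed, at log2 fold changes of -0.29, -0.29 and -0.23 (edgeR adjusted p of 0.0867, 0.1 and 0.242). Each of them passed when either other pair was left out instead.

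ZNF217, an oncogene of the 20q13 amplicon, was at 51.0, 63.9 and 62.6 CPM in LMB and 52.5, 47.1 and 51.2 CPM in LMB+auxin. It was the 1 gene of the 16 that was lower in only 2 of 3 pairs, because replicate 1 showed no decrease, and its groups overlapped (log2 fold change -0.23 ± 0.06, edgeR adjusted p of 0.0101). It was at -0.36 without pair 1 but did not pass without pair 2 (-0.12, edgeR adjusted p of 0.419) or pair 3 (-0.19, 0.361), nor in DESeq2 with the block (adjusted p of 0.574). ZNF593 was at 18.8, 18.6 and 19.9 CPM and 14.1, 17.8 and 16.8 CPM (-0.24 ± 0.07, edgeR adjusted p of 0.0374), but all of its exonic bases lie under the antisense gene ZNF593OS. ZNF593 did not pass without pair 1 or pair 3 (edgeR adjusted p of 0.285 and 0.347).

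The remaining genes of the 16 were ZNF92, ZNF629, ZNF687, ZNF48, ZNF407, ZNF213, ZNF205 and ZNF768, all lower, named here because they complete the count. Over the 16 genes the mean level ran from 1.48 to 54.7 CPM, and the smallest change was -0.19. In 13 of them the groups did not overlap, 15 were lower in 3 of 3 pairs, and 14 had an unadjusted p under 0.05 without the block. DESeq2 with the block gave 5 of the 16 an adjusted p under 0.05, and gave no adjusted p to 53 of the 200 genes. The share of all genes past the adjusted p in that fit is not given here. Its unadjusted p was under 0.05 in 19 of the 200 and in 1345 of the 16974 tested genes. In 5 of the 16 (ZNF263, ZNF205, ZNF593, ZNF687 and ZNF48) another gene covered more than 10% of the exonic bases.

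**Figure D2:**
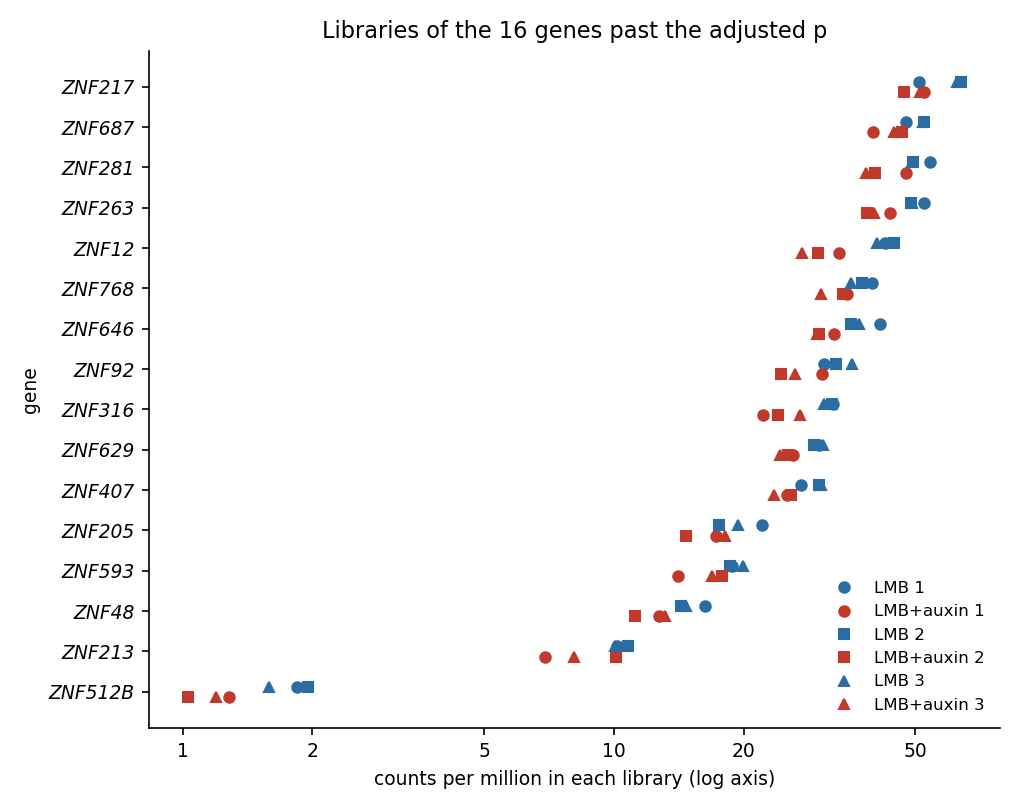
CPM in each library (log axis) for the 16 ZNF genes with an adjusted p under 0.05 in edgeR with the replicate block, LMB in blue and LMB+auxin in red, with 1 symbol shape per replicate number. In 13 genes the red points lie wholly to the left of the blue ones, and in ZNF217, ZNF213 and ZNF205 they overlap.

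ZNF12 and ZNF316 are neighbours, and their promoters are shown because theirs were the largest changes among the genes above 2 CPM. The sequences are RefSeq's (GRCh38.p14), 300 bases from 250 before to 50 after the start, at chr7:6706898-6707197 on the minus strand and chr7:6637068-6637367 on the plus strand. Capitals mark matches on either strand to any of 6 motifs. These were the GC box, with the letters GGGCGG, the box known by its letters CCAAT, the motif of ETS factors, written CCGGAAG, the E-box, with the letters CACGTG, the core of the cyclic AMP response element, written TGACG, and the motif of the factor NRF1, with the letters GCGCATGC.
ZNF12: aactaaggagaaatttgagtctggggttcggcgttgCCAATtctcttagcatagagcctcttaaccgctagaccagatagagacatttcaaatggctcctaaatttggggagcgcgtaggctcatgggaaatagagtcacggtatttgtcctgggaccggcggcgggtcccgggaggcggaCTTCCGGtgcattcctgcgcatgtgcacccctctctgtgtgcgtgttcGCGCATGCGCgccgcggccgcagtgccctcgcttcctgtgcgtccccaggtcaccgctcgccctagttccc
ZNF316: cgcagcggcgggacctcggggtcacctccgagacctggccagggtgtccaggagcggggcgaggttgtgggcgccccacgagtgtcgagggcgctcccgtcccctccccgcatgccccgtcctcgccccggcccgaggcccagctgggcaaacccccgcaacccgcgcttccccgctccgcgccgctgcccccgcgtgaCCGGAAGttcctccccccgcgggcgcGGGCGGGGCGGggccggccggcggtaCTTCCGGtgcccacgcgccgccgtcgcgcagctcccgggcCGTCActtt
Both hold the ETS motif, and matches may overlap each other. The RefSeq table gave promoters for 167 of the 200 genes and for 15 of the 16. The ETS motif was in 65 of the 167 (38.9%) and in 9 of the 15, against 18.97% of the 11099 tested genes with a promoter and 10.7% of all 27305 promoters. CCAAT was in 45.5% of the 167 and 36.65% of the tested genes, and GGGCGG in 64.7% and 69.45%. TGACG was in 36.5% and 34.3%, GCGCATGC in 8.98% and 5.53%, and CACGTG in 6.59% and 10.05%. A match describes letters and not a bound site, and no binding data were analysed here.

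No ZNF gene rose past the adjusted p. The smallest p in the upward direction belonged to ZNF410, a factor known chiefly for activating CHD4, at 64.4, 54.3 and 60.4 CPM in LMB and 72.2, 57.6 and 65.4 CPM in LMB+auxin. Each LMB+auxin value was above its LMB partner, but the groups overlapped (log2 fold change 0.12 ± 0.05, adjusted p of 0.166 in edgeR with the block). CHD4 itself had a log2 fold change of 0.07 ± 0.04. Next came ZNF669 at 0.18 ± 0.08, ZNF277 at 0.14 ± 0.06, ZNF280D at 0.11 ± 0.06 and ZNF37A at 0.10 ± 0.06, with edgeR adjusted p values of 0.170 to 0.295.

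Apart from ZNF281 and ZNF217, the genes named for a known role (beside KRAB silencing, except for ZNF10) did not pass the test. ZNF207, or BuGZ, which binds the kinetochore protein BUB3, averaged 300.4 ± 12.3 CPM (SD, n = 3) in the LMB libraries and 301.2 ± 3.1 CPM (n = 3) with auxin. ZNF143, an activator of snRNA and coding gene promoters, was at 61.0 ± 3.0 and 59.2 ± 2.2 CPM. ZNF148 (ZBP-89) was at 61.3 ± 3.4 and 60.8 ± 1.6 CPM.

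ZNF326, of the DBIRD complex that couples transcription and splicing, was at 30.4 ± 0.8 and 30.4 ± 1.3 CPM. ZNF598, the ubiquitin ligase that marks collided ribosomes, was at 50.1 ± 1.6 and 48.5 ± 0.9 CPM, and ZNF622 at 35.0 ± 1.3 and 34.2 ± 1.0 CPM. ZNF10 (KOX1), whose KRAB domain is the one widely used for targeted repression, was at 7.52 ± 0.82 and 8.25 ± 1.33 CPM. Over these 7 genes the edgeR log2 fold changes with the block lay between -0.05 and 0.13, with adjusted p values from 0.433 to 0.986.

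ZNF664 was at 243.2, 238.9 and 242.2 CPM in LMB and 271.1, 238.9 and 255.3 CPM in LMB+auxin, and ZNF638 at 246.5, 236.7 and 248.2 CPM and 284.7, 236.4 and 248.7 CPM. Both were highest in LMB+auxin replicate 1 and neither passed the test. ZNF511 was at 63.4 ± 2.7 and 61.7 ± 3.4 CPM.

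Among genes at a mean of 5 CPM or more, those that varied most within groups did so by replicate number. ZNF485, ZNF76 and ZNF618 had a mean within-group SD of 0.32, 0.31 and 0.30 on the log2 CPM scale. ZNF618 was at 14.2, 19.8 and 16.3 CPM in LMB replicates 1, 2 and 3 and at 13.04, 21.6 and 16.6 CPM in LMB+auxin, highest in replicate 2 of both groups. ZNF76 was also highest there, at 16.8 and 17.9 CPM, and ZNF485 lowest, at 4.65 and 4.53 CPM. None of the 3 passed the test.

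The genes that passed were spread unevenly over the chromosomes. Chromosome 16 held most ZNF genes (27), of which 23 had a log2 fold change below 0 with the block, and 7 (25.9%) passed the adjusted p, all lower. The median of the 27 was -0.17. Of the 575 other coding genes tested on chromosome 16, 63.5% were below 0, 34 (5.91%) passed as lower, and the median was -0.037. On chromosome 7, 3 of 24 passed (12.5%, beside 3.59% of the other coding genes there), and on chromosome 1, 3 of 18 (16.7%, beside 2.65%). The other 3 were ZNF217 and ZNF512B on chromosome 20 (2 of 7, 28.6%, beside 3.61%) and ZNF407 on chromosome 18 (1 of 8, 12.5%, beside 1.22%). Fewer were below 0 on chromosome 12, with 3 of 11 and a median of 0.05 (41.3% and 0.021 for the other coding genes there), and on chromosome 17, with 3 of 9 and a median of 0.0045 (58.7% and -0.021).

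Where neighbouring ZNF genes were chained at distances of at most 500 kb, 11 clusters of 4 or more genes were found, with 65 genes in all. In the cluster from ZNF205 to ZNF597 (chr16:3112560-3443504) all 7 genes were below 0, with a median of -0.23, and ZNF205, ZNF213 and ZNF263 passed. In the cluster from ZNF48 to ZNF646 (chr16:30378106-31084196) all 11 were below 0, with a median of -0.19, and ZNF48, ZNF768, ZNF629 and ZNF646 passed. These clusters hold all 7 genes of chromosome 16 that passed. In the cluster from ZNF680 to ZNF92 (chr7:64519878-65401136), 5 of 6 were below 0, with a median of -0.12, and ZNF92 passed. The cluster from ZNF251 to ZNF16 (chr8:144720907-144950888) also had 5 of 6 below 0 and a median of -0.12, and none of its genes passed. Of the 11 clusters, 7 had a median below 0. The cluster from ZNF26 to ZNF268 at the end of chromosome 12 (chr12:132986365-133214832), with 6 KRAB-like genes, had 1 gene below 0 and a median of 0.06, and none of its genes passed. Genes of 1 cluster are neighbours and are not independent.

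**Figure D3:**
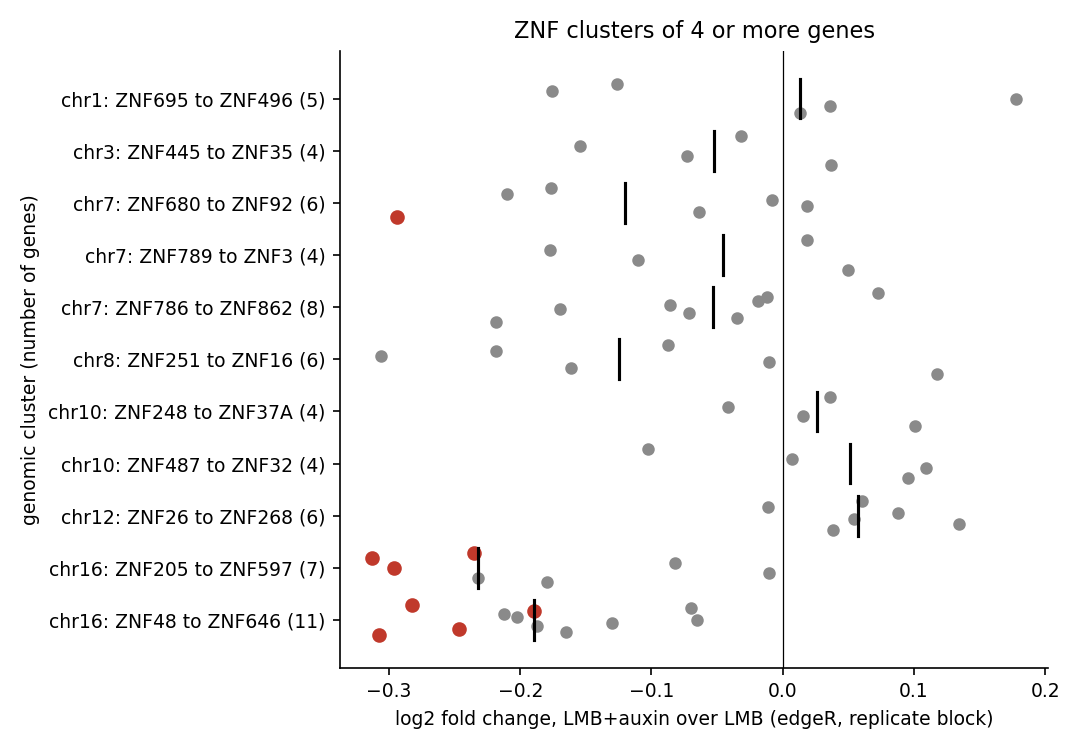
Log2 fold change (LMB+auxin over LMB, edgeR with the replicate block) of each gene in the 11 clusters of ZNF genes, in genomic order within a cluster, with the cluster median as a black bar and genes past the adjusted p in red. All 18 genes of the chromosome 16 clusters lie left of 0, and 5 of 6 in the chromosome 12 cluster lie right of it.

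Base composition moved with these differences. The GC content of the canonical transcript had a median of 45.8% in the ZNF genes and 48.8% in the other coding genes. Across genes the Spearman correlation of GC content with the log2 fold change was -0.314 over the 200 ZNF genes and -0.481 over 12463 other coding genes, all measured in the same 6 libraries. Of the 67 ZNF genes richest in GC (52.0 to 70.2%), 57 were below 0, as were 74.9% of the other coding genes in that range. Of the 67 poorest in GC (33.2 to 41.9%), 37 (55.2%) were below 0, against 26.6% of the other coding genes, and of the 66 between them 41 (62.1%), against 29.8%. The share below 0 was thus higher in the ZNF genes than in other coding genes in each range, and 11 of the 16 genes that passed were among the 67 richest. The part of base composition in these differences was not tested beyond the fit given next.

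**Figure D4:**
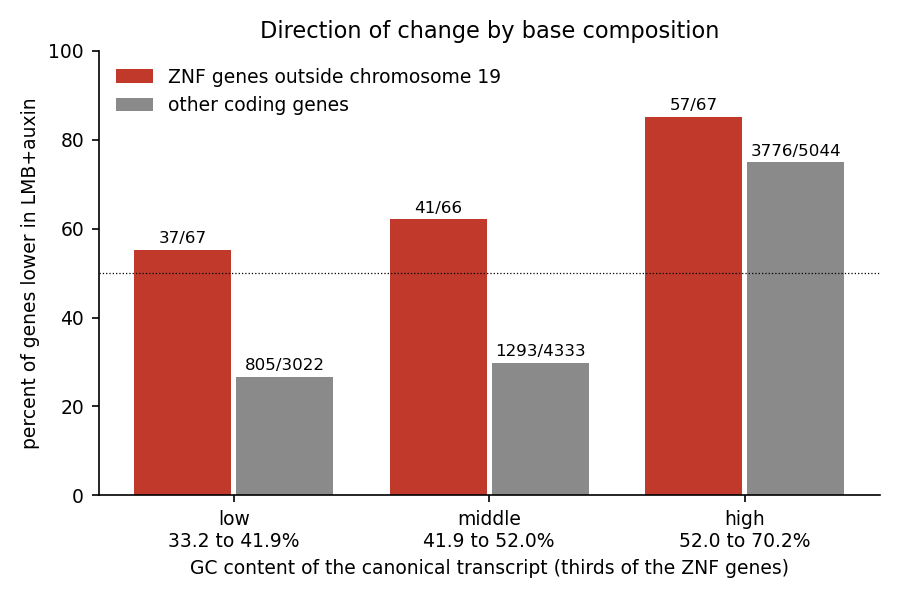
Percent of genes with a log2 fold change below 0 (edgeR with the replicate block) in 3 equal parts of the ZNF genes by GC content, for the ZNF genes outside chromosome 19 and for the other tested coding genes, with counts above the bars. The ZNF bar is the higher of each pair, at 55.2%, 62.1% and 85.1% against 26.6%, 29.8% and 74.9%.

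When each library's trend with GC content was taken out in the edgeR fit with the block, 146 of 200 ZNF genes (73.0%) were below 0 with a median of -0.053, beside 43.1% and 0.014 for the other coding genes. By the adjusted p, 22 were lower and 0 higher, against a background of 3.38% lower and 2.19% higher. Of the 16 genes, 10 passed again, namely ZNF12, ZNF316, ZNF263, ZNF646, ZNF281, ZNF92, ZNF629, ZNF217, ZNF687 and ZNF407. ZNF12 was at -0.55 ± 0.04 (edgeR adjusted p of 9.81e-12) and was the 1 ZNF gene called. ZNF512B did not pass (-0.49 ± 0.19, edgeR adjusted p of 0.119). ZNF48, ZNF213, ZNF205, ZNF593 and ZNF768, all rich in GC, did not pass either.

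The other 12 that passed in this fit all had a GC content below the median of the ZNF genes, and the examples here were chosen after their values were seen. ZNF644, a partner of the G9a and GLP histone methyltransferases, was at 140.8, 136.3 and 132.7 CPM in LMB and 137.9, 114.2 and 119.3 CPM in LMB+auxin, and had a GC-corrected log2 fold change of -0.18 ± 0.03. ZNF367 was at 57.0, 44.1 and 59.3 CPM and 50.9, 38.7 and 53.0 CPM, lower in 3 of 3 pairs although its groups overlapped, at -0.21 ± 0.04 after the correction. In the chromosome 16 clusters the medians became -0.17 and -0.13, with 7 of 7 and 9 of 11 genes below 0, while the other coding genes of chromosome 16 moved to 0.0088. Similar medians were found elsewhere, at -0.16 from ZNF251 to ZNF16 on chromosome 8 (5 of 6 below 0) and -0.14 from ZNF680 to ZNF92 on chromosome 7 (6 of 6). The highest cluster median was 0.02, from ZNF487 to ZNF32 on chromosome 10. The median of the chromosome 12 cluster became 0.01, and over all 11 ZNF genes of chromosome 12 it was 0.0084 with 5 below 0.

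KRAB-like genes held fewer of the genes that passed than the others did. The others may include genes with a KRAB domain that the 8 of 11 rule missed. With the block 3 of 83 KRAB-like genes (3.61%) and 13 of 117 without the stretch (11.1%) passed the adjusted p, all lower, and the medians were -0.036 and -0.080. The GC content of the transcripts also differed, with medians of 42.7% and 48.6%. With the GC trend taken out the counts were 8 of 83 and 14 of 117, so KRAB-like genes still held fewer. The medians were then -0.053 and -0.049, so only the difference of the medians had the opposite sign.

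Other features of the genes were compared in the same way. The share that passed was 0 of 6 genes with no finger pattern, 4 of 58 with 1 to 5 fingers, 5 of 71 with 6 to 10 and 7 of 65 with more than 10, with medians of -0.049, -0.044, -0.070 and -0.073. Of 107 genes with another ZNF gene within 500 kb, 11 passed, and of 93 without, 5. By level, 2 of the lowest 67, 3 of the middle 66 and 11 of the highest 67 passed, while the medians were -0.083, -0.073 and -0.035. The number past the test was thus greatest at high levels, where counts are most precise, and the median change was smallest there. By merged exon length the counts were 5, 7 and 4 from short to long. Without the 48 genes that overlap another gene, 11 of 152 passed, with a median of -0.068.

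A list of 23 genes was drawn up for the partners through which KRAB zinc finger proteins silence chromatin, and all of them passed the level required. Whether each of them acts with KRAB proteins in these cells was not tested. In edgeR 0 of 23 were called with or without the block, and 0 had an unadjusted p under 0.05 without it. Above 0 with the block were 17 of 23, and 6 (26.1%) were below 0, against 51.0% of all genes. In 3 of 3 pairs 12 (52.2%) were higher and 1 (4.35%) lower, against 21.4% and 20.5% of all genes. With the block 5 (4 higher and 1 lower) had an unadjusted p under 0.05, where 8.1% of all genes were higher and 11.8% lower by that rule. Their number was near the background of both directions together. The higher ones exceeded their share and the lower one fell short of its share, which was not tested. Of these, HDAC2 (0.14 ± 0.05), SMARCAD1 (0.13 ± 0.05), TASOR (0.09 ± 0.05) and CBX5 (0.09 ± 0.04) were above 0 and UHRF1 (-0.12 ± 0.05) below. The lowest adjusted p was 0.0749, for HDAC2. TRIM28, the corepressor itself, averaged 627.7 ± 7.0 CPM (SD, n = 3) in the LMB libraries and 593.8 ± 55.2 CPM (n = 3) with auxin, with a log2 fold change of -0.08 ± 0.04. SETDB1 was at 58.5 ± 2.7 and 57.8 ± 2.1 CPM.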

How the data were processed

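The study extracted total RNA from 6 cultures, removed ribosomal RNA, prepared TruSeq libraries and sequenced paired-end reads. The authors aligned the reads with STAR to GRCh38 and counted them per Ensembl gene with featureCounts (versions 2.6.1c and 1.5.2 in the submitters' processing notes). The deposited values are raw counts, not normalized. How the counting treated strand and multiply matching reads is not given in the sources used here.

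Symbols (98.1% of 58051 identifiers), positions and coding sequences came from GENCODE 44, on the same assembly. Fingers and KRAB-like stretches were counted in translated canonical coding sequences, in place of the RefSeq proteins first planned. Groups came from the treatment labels (3 LMB, 3 LMB+auxin). Counts were tested with edgeR 4.0.16 (TMM, estimateDisp, robust glmQLFit, glmQLFTest; R 4.3.3), with Benjamini-Hochberg adjustment over the 16974 genes with CPM above 1 in at least 3 libraries. The SE is the log2 fold change over the square root of F. CPM values are TMM-scaled. The replicate numbers, from the sample titles, were taken to pair the libraries because same-numbered libraries deviated together (correlations of 0.531, 0.691 and 0.273 of deviations from the group means), and the block holds that number. Between libraries of different numbers the correlations ran from -0.573 to 0.146, so the pairing was least clear for replicate 3. The GC correction used offsets smoothed over 20 bins of transcript GC content. No pair of replicates agreed within sampling noise. DESeq2 1.42.0, limma 3.58.1 (voom), other scalings, no filter and leaving out libraries or pairs were alternatives. The fits were tested on simulated data.

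The genes and lists were chosen with earlier results of these data known. Named genes were those called, the 5 smallest p with the block in each direction and the 5 highest levels per kilobase. Also named were 10 with known roles (beside KRAB silencing, except for ZNF10) and the 3 most variable at 5 CPM or more. The GC correction, the clusters, the promoter motifs and the genes stated as such in the text were chosen after seeing the data. No explanation was tested.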

Additional observations from a re-analysis of the deposited data

How the results depend on the processing

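Over all tested genes, the number called was 1 with edgeR and TMM scaling without the block, 0 with library size alone, 39 with no filter on low counts, 11 with DESeq2, 201 with the replicate block, 30 with the block in DESeq2, 254 with the block and library size alone, 159 with the block and the GC correction (chosen after seeing the data), 141, 160 and 137 with the block and pair 1, 2 or 3 left out, and 0 to 5 with 1 library left out. Among the ZNF genes the number was 0 without the block, 1 with no filter, 1 with DESeq2, 2 with the replicate block, 1 with the block in DESeq2, 3 with the block and library size alone, 1 with the block and the GC correction, 2 with the block and any pair left out, and 2 with the block and without genes that overlap others. With 1 library left out 0 were called. The block with TMM scaling and all 6 libraries changed no call among the named genes other than ZNF12 and ZNF512B. It also changed none among the genes listed as KRAB partners. ZNF12 was called in each setting that called any ZNF gene. ZNF512B was called with the block, also with library size alone, but not with any pair left out. The gene called beside ZNF12 was then ZNF92 without pair 1, ZNF213 without pair 2 and ZNF316 without pair 3, and ZNF316 was also called with the block and library size alone. The cause of these differences was not tested.

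The median over the ZNF genes stayed below 0 under every alternative, from -0.104 (without LMB+auxin replicate 1) to -0.041 (without LMB+auxin replicate 3) when 1 library was left out. The ZNF genes past the adjusted p with the block numbered 18, 7 and 2 without pair 1, 2 and 3, and the share of all genes past it is not given for these fits. The median over the chromosome 19 genes ranged from -0.107 to -0.024 when libraries were left out and was -0.031 with the block and without pair 3. The difference of the medians of KRAB-like and other ZNF genes was 0.040 and turned to -0.0033 with the GC correction, -0.0039 with the block and without pair 1 and -0.0014 without LMB replicate 2, and without single libraries or pairs it ran from -0.0039 to 0.066. Other scalings moved the median of all genes by less than 0.1, from -0.015 to 0.0045.

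Of the 26 named genes, 16 kept their direction under every alternative. Of 494 values for single genes 32 changed sign, 23 of them with a library or pair left out. ZNF207 turned to -0.0084 with library size alone, -0.0049 with upper quartile scaling, -0.0077 with the block and library size and -0.031 with the GC correction. ZNF326 turned to 0.0048 with DESeq2 and its size factors and 0.0044 with the block in DESeq2. With the GC correction ZNF598 turned to 0.097 and ZNF511 to 0.049. With 1 pair left out of the block fit ZNF511 turned to 0.030, ZNF622 to 0.010, ZNF618 to -0.036, ZNF148 to 0.015 and 0.011, ZNF207 to -0.00054 and -0.014, and ZNF326 to 0.0021 and 0.012. With 1 library left out 8 genes changed sign, and their values ran from -0.0096 to 0.038 for ZNF207, from -0.036 to 0.028 for ZNF326, from -0.067 to 0.0054 for ZNF511, from -0.0073 to 0.132 for ZNF638, from -0.132 to 0.285 for ZNF485, from -0.340 to 0.065 for ZNF76, from -0.178 to 0.185 for ZNF618 and from -0.051 to 0.037 for ZNF148. None of these genes passed a test. Genes near 1 CPM rest on few reads per library, and a fold change such as that of ZNF512B is imprecise.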
